A study of Rattus norvegicus with 9 samples.

Results

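The opioid peptides and receptors are described here by the 7 genes that encode them, in the frontal cortex of adult rats after neonatal maternal separation (MS) and electroacupuncture (EA). The members were chosen by gene symbol and not by any measured value, though with earlier results of these data known. All 7 were found among the 37209 genes of the count table. They are the peptide precursors Penk, Pdyn and Pnoc and the receptors Oprm1, Oprd1, Oprk1 and Oprl1. RNA-Seq reads per gene were available for 9 male Wistar rats of 14 weeks, 3 per group (Control, MS and EA). Control litters (rats A1, A2 and A6) stayed undisturbed with their mothers until weaning. MS rats (B3, B4 and B6) lost their mothers for 4 h of each day between PND 1 and PND 21, and EA rats (C3, C10 and C16) had the same separation. The EA rats, labelled MS+EA, were then stimulated at GV20 (Baihui) and GV29 (Yintang) every other day from PND 61 to PND 81. By the study's methods the Control and MS rats received the isoflurane anesthesia alone, so all 9 rats had been anesthetized repeatedly, and no sham-stimulated rats are among the sequenced groups.

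Opioid peptides are cut from large precursors and act on receptors that couple to inhibitory Gi/o proteins, which lower cAMP, open potassium channels and close calcium channels. Penk yields the enkephalins, which prefer the delta and mu receptors, Pdyn yields the dynorphins, which prefer the kappa receptor, and Pnoc yields nociceptin, the ligand of the receptor encoded by Oprl1. In cortex these precursors are mostly made by inhibitory interneurons, the kappa system has long been linked to stress and aversion, and opioid peptides are known to take part in the analgesia that electroacupuncture produces in rats.

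The total per rat lay between 12479905 and 19007907 reads on genes, and the 3 EA rats, at most 14913736, lay below the other 6 rats, at least 16106381. Expression is given as CPM, the reads of a gene relative to the library total after scaling by edgeR's TMM method, and groups were compared with the quasi-likelihood F test of edgeR over the 16837 genes that passed its filter on low counts, where called means an adjusted p (Benjamini-Hochberg) below 0.05 together with a change of over 1.5-fold. All 7 members passed the filter. Because transcript lengths were not at hand, levels are compared between rats for each gene and not between genes. Markers of cortical excitatory neurons were high in every rat, with Slc17a7, the vesicular glutamate transporter of cortical neurons, between 1225 and 1635 CPM. Of the 13 listed striatal markers, Isl1 and Ido1 had no read in any rat, and Six3 had at most 1 read. The other listed striatal genes were read in all rats, among them Drd1 at 10.4 to 20.1 CPM and Drd2 at 2.97 to 6.10 CPM. The summed olfactory bulb markers stood at 69.3 CPM in C3 and 33.1 CPM in C16 against at most 25.7 CPM in the other 7 rats, and the summed hypothalamic markers at 48.6 CPM in the MS rat B4 against 2.11 to 7.28 CPM elsewhere.

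Of the 7 opioid genes, none passed the test after maternal separation or electroacupuncture. The edgeR test called 0 of the 7 members in each of the 3 comparisons, where 0.0238% (MS against Control), 0.0178% (EA against MS) and 1.37% (EA against Control) of all tested genes were called. DESeq2 also called 0 of the members it gave an adjusted p for, which left out Pnoc and Oprk1 in EA against MS. The largest member estimates were those of Oprk1, 1.84-fold higher in EA than in Control rats and 1.60-fold higher in EA than in MS rats, followed by Penk, 1.38-fold higher in EA than in MS rats. Within the EA group, C3 and C16 stood apart for Penk and C3 for Oprk1. The log2 fold change of Penk in EA over MS rats was 0.46 with all rats. It was 0.30 without the MS rat B3, 0.32 without C3 and 0.41 without C16. That of Oprk1 in EA over Control rats was 0.88 with all rats and 0.44 without C3.

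**Figure D1:**
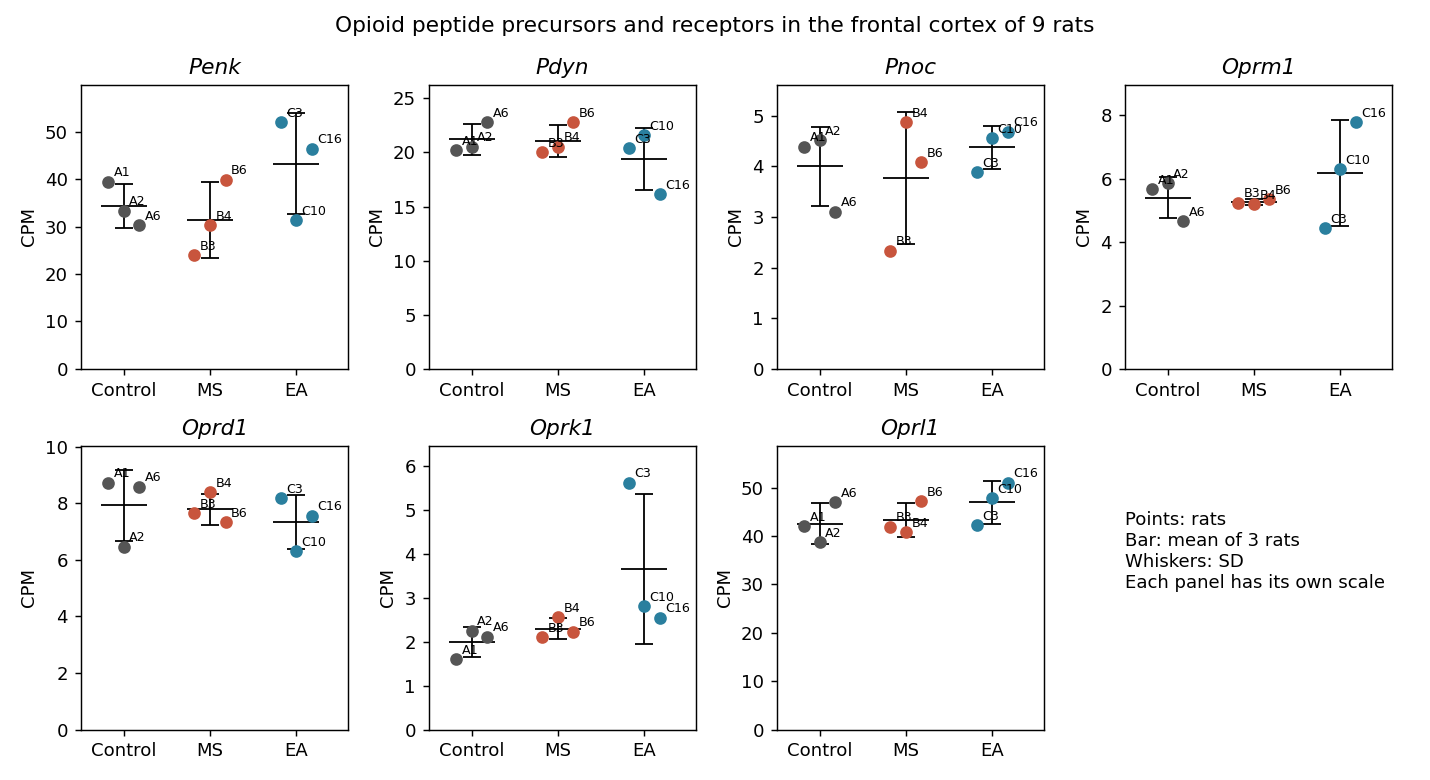
Normalized expression (CPM, vertical axis, own scale per panel) of the 7 opioid genes in each rat, with points for rats, bars for means and whiskers for SD of 3 rats. Groups overlap for most genes, while C3 stands alone for Oprk1 at 5.62 CPM and C3 and C16 lead for Penk.

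Penk, the enkephalin precursor, had 39.4, 33.4 and 30.3 CPM in A1, A2 and A6 of the Control group, 24.0, 30.3 and 39.9 CPM in B3, B4 and B6 of the MS group, and 52.0, 31.4 and 46.4 CPM in C3, C10 and C16 of the EA group. The groups overlapped, since C10 lay within the range of the other groups, and only C3 and C16 exceeded every Control and MS rat. The means were 34.4 ± 4.67 CPM (SD, n = 3) in Control, 31.4 ± 8.00 CPM (SD, n = 3) in MS and 43.3 ± 10.7 CPM (SD, n = 3) in EA rats. Against MS, EA rats had a Penk log2 fold change of 0.46 (standard error 0.196, unadjusted p = 0.0353, edgeR adjusted p = 0.363), with a 95% interval of 1.03-fold to 1.85-fold. An exact two-sided permutation test of log2 CPM over the rats gave p = 0.2, where 0.1 is the smallest p that 3 rats against 3 allow.

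The higher Penk mean of the EA group came from C3 and C16, the 2 rats with the highest olfactory bulb markers. Within the bulb list, Eomes, a transcription factor of mitral and tufted cells, had 65 reads in C3 and 22 in C16 against at most 8 in the other rats. Cdhr1, a cadherin of the same cells, had 57.0 CPM in C3 and 24.5 CPM in C16 against 5.50 to 20.001 CPM elsewhere. Tbx21, also a mitral cell gene, had 20 reads in C3, 4 in C16 and at most 2 in any other rat. Doc2g and Th, the remaining bulb genes, did not follow C3 and C16 together, with Doc2g highest in C3 at 4.995 CPM and Th highest in C16 at 3.58 CPM. With C3 and C16 both left out, a fit added after the data had been seen in which the lone EA rat C10 is assumed to vary like the other groups, the log2 fold change of Penk in EA relative to MS rats was 8.6e-04 instead of 0.46. Against Control rats it turned from 0.33 to -0.14. Since C3 and C16 were also the 2 rats with the highest Penk, these drops followed from the choice of rats left out. The refit therefore cannot show a link between Penk and the bulb markers. Whether tissue of the bulb contributed to the Penk reads was not tested. In whole tissue, fewer cells of a type and less RNA per cell cannot be told apart.

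Markers of the striatum, another region rich in Penk, were read in the same way. The 13 listed striatal genes summed to 285 to 291 CPM in Control, 297 to 302 CPM in MS and 273 to 330 CPM in EA rats, with C16 the lowest of all 9 rats and C3 the highest. The 13 cortical interneuron markers summed to 866 to 909 CPM in Control, 799 to 970 CPM in MS and 765 to 989 CPM in EA rats, with C3 the lowest and C16 the highest.

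**Figure D2:**
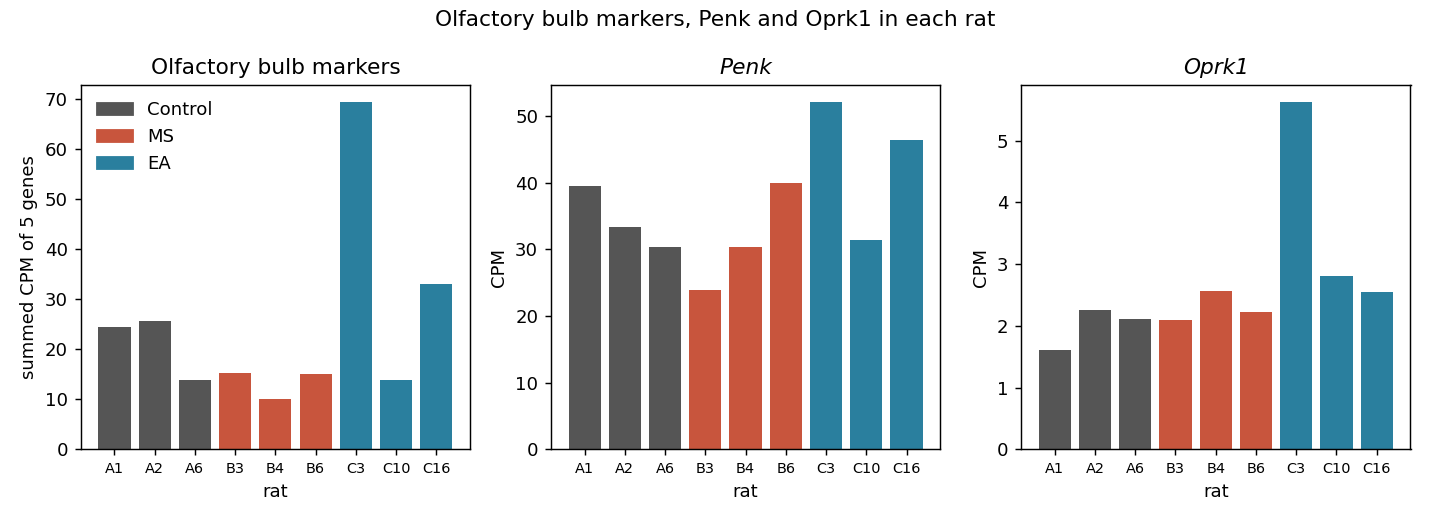
Bars give, for each rat (horizontal axis), the summed CPM of the 5 olfactory bulb markers Eomes, Th, Doc2g, Cdhr1 and Tbx21 (left), the CPM of Penk (middle) and the CPM of Oprk1 (right), coloured by group. C3 is highest in all 3 panels, and C16 is second for the bulb markers and Penk but not for Oprk1.

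Pdyn, the dynorphin precursor, had 20.2, 20.5 and 22.8 CPM among Control rats, 20.002, 20.5 and 22.8 CPM among MS rats and 20.4, 21.6 and 16.1 CPM among EA rats. The Control and MS rats covered nearly the same range, and C16 was the lowest rat, with 203 reads. The fold change of MS over Control rats had a 95% interval of 0.831 to 1.19, and that of EA over MS rats one of 0.766 to 1.10. A change of 1.5-fold lay outside the interval in both comparisons and also for EA over Control rats (0.763 to 1.10). In the RefSeq annotation of the GRCr8 assembly an uncharacterized lncRNA gene overlaps Pdyn, and the strand used in counting is not stated.

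Because C16 combined a high Penk with the lowest Pdyn value, the ratio of both precursors within a library, which does not depend on scaling between libraries, was also read. It was chosen after the values had been seen and is given without a test. There were 1.95, 1.62 and 1.33 Penk reads per Pdyn read among Control rats, 1.20, 1.48 and 1.75 among MS rats, and 2.55, 1.45 and 2.88 among EA rats. C3 and C16 again lay above the other 7 rats, and C10 lay among them.

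Pnoc, the nociceptin precursor, was counted by 40 to 82 reads per rat. It had 4.39, 4.51 and 3.11 CPM among Control rats, 2.33, 4.88 and 4.09 CPM among MS rats and 3.89, 4.56 and 4.69 CPM among EA rats. The EA rats lay inside the range of the MS rats. The 95% interval of the fold change was 0.628 to 1.40 for MS over Control rats and 0.776 to 1.74 for EA over MS rats, so a 1.5-fold decrease in the first and a 1.5-fold increase in the second lay inside the interval at this depth. The spread of Pnoc within groups was wide, with a pooled SD of 0.361 on the log2 CPM scale against a median of 0.177 over all tested genes.

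Pomc, which encodes the precursor of beta-endorphin and is made mainly in the hypothalamus and pituitary, did not pass the filter on low counts and was not tested. Its reads were 15, 10 and 9 for Control, 10, 5 and 8 for MS and 5, 4 and 2 for EA.

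Oprm1, the mu receptor, had 5.67, 5.85 and 4.66 CPM among Control rats, 5.25, 5.19 and 5.35 CPM among MS rats and 4.44, 6.30 and 7.79 CPM among EA rats. The EA group held both the lowest rat, C3, and the highest, C16, while the MS rats lay close together at 5.26 ± 0.0811 CPM (SD, n = 3). Against MS rats the EA group had a log2 fold change of 0.23 (edgeR adjusted p = 0.693, standard error 0.208), and it was 0.42 without C3 and 0.029 without C16. In the GRCr8 annotation of RefSeq the gene overlaps Ipcef1, a protein-coding gene, so reads of the shared stretch cannot be assigned without the strand of the counting.

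Oprd1, the delta receptor, had 8.72, 6.46 and 8.58 CPM among Control rats, 7.64, 8.38 and 7.34 CPM among MS rats and 8.19, 6.30 and 7.55 CPM among EA rats. A2 and C10 were the low rats, and the ranges of all 3 groups overlapped. The 95% interval of the fold change was 0.765 to 1.26 for MS over Control rats and 0.732 to 1.21 for EA over MS rats, with 1.5-fold outside both.

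Oprl1, the nociceptin receptor, varied least among the members, with a pooled SD within groups of 0.131 on the log2 CPM scale. It had 42.0, 38.7 and 47.0 CPM among Control rats, 41.9, 40.8 and 47.3 CPM among MS rats and 42.3, 47.8 and 51.0 CPM among EA rats. C10 and C16 were the highest rats and C3 lay among the others. The fold change of EA over Control rats was 1.10, with a 95% interval of 0.949 to 1.29.

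Oprk1, the kappa receptor that binds dynorphins, had the fewest reads of the members, namely 30, 37 and 34 in the Control group, 36, 41 and 37 in MS and 81, 42 and 32 in EA. In CPM these were 1.61, 2.26 and 2.11 among Control rats, 2.10, 2.56 and 2.22 among MS rats, and 5.62, 2.81 and 2.54 in C3, C10 and C16. C3 stood well above the other 8 rats, its 81 reads having an exact 95% Poisson interval of 64.3 to 101 reads for counting error alone, against 30.3 to 56.8 for the 42 reads of C10. The EA rats did not overlap with the Control rats, but C16 lay within the range of the MS rats. Oprk1 was the 1 member of 7 whose groups did not overlap in EA against Control rats, where 25.9% of all tested genes did not overlap.

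Over Control rats the EA rats had an Oprk1 log2 fold change of 0.88 (standard error 0.319, unadjusted p = 0.0163, edgeR adjusted p = 0.121), with a 95% interval of 1.14-fold to 2.98-fold and an exact permutation p = 0.1, the smallest possible. Over MS rats it was 0.68 (edgeR adjusted p = 0.405, standard error 0.315). Without C3 the log2 fold changes were 0.44 and 0.23. The means were 1.99 ± 0.342 CPM (SD, n = 3) in Control, 2.30 ± 0.241 CPM (SD, n = 3) in MS and 3.66 ± 1.703 CPM (SD, n = 3) in EA rats.

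Beside the bulb markers, other marker lists were read in C3. The 10 markers of layers 6, 6b and the claustrum summed to 206 CPM in C3, the highest of the 9 rats, and to 141 to 189 CPM in the others, but the single genes did not all follow this sum. C3 was the highest rat for 3 of the 10 (Gnb4, Nr4a2 and Nxph4), C16 for 5 (Cplx3, Ctgf, Foxp2, Syt6 and Trh) and A2 for 2 (Ntsr1 and Tle4). Nr4a2, a nuclear receptor of deep cortical and claustral neurons, had 42.9 CPM in C3 against 12.3 to 29.7 CPM in the other rats, whereas Foxp2, a transcription factor of layer 6, had 15.3 CPM in C3 and 24.2 CPM in C16. The 5 oligodendrocyte markers summed to 3906 CPM in C3 against 1675 to 3016 CPM, and the 8 markers of cortical excitatory neurons to 1827 CPM against 2027 to 2332 CPM. Their part in the Oprk1 value of C3 was not tested.

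With dynorphin and its receptor read together, there were 12.6, 9.11 and 10.8 Pdyn reads per Oprk1 read among Control rats, 9.53, 8.00 and 10.2 among MS rats, and 3.63, 7.67 and 6.34 among EA rats. All 3 EA rats lay below the other 6. Among single genes, 17.9% (EA against MS) and 25.9% (EA against Control) of all tested genes had groups that did not overlap. No such share was counted for ratios. C3 had the highest Oprk1 of all rats and C16 the lowest Pdyn. C10 had neither, with Oprk1 at 2.81 CPM and Pdyn at 21.6 CPM. The ratio of Pdyn to Oprk1 reads was also chosen after the values had been seen and is not tested. For nociceptin and its receptor, the 3 EA rats had 0.0920, 0.0952 and 0.0919 Pnoc reads per Oprl1 read, within the 0.0556 to 0.120 of the other rats. Penk reads per Oprd1 read were 6.36, 4.98 and 6.15 in C3, C10 and C16 and 3.14 to 5.43 in the other rats, so these groups overlapped.

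Comparison of MS with Control rats asked whether separation in early life left a difference in adult cortex. No member was called, and 0 of 7 had an unadjusted p under 0.05, where 10.6% of all genes did. The adjusted p of the members lay between 0.857 and 0.992. Their median log2 fold change was -0.027 beside a median of -0.0014 over all genes, with 2 members higher and 5 lower. No member had groups that did not overlap, whereas 17.6% of all genes did. For 5 members the 95% interval excluded a change of 1.5-fold in either direction, the exceptions being Pnoc and Oprk1, and 60.3% of all tested genes had such an interval.

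Comparison of EA with MS rats asked whether the stimulation changed expression in separated rats. Again no member was called, and 1 member, Penk, had an unadjusted p under 0.05 against 12.4% of all genes. The members' adjusted p was between 0.363 and 0.876, and 5 were higher and 2 lower. Their median log2 fold change was 0.22, beside 5.9e-04 over all genes. Ranges of the groups overlapped for every member, whereas 17.9% of all genes had groups that did not. For Pdyn, Oprd1 and Oprl1 a 1.5-fold change lay outside the 95% interval, as it did for 59.4% of all genes.

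EA and Control rats differ by separation and stimulation together, and again no member was called between them. Here 1 member, Oprk1, had an unadjusted p under 0.05 against 22.5% of all genes. The smallest adjusted p was 0.121, and Pdyn, Oprd1 and Oprl1 had intervals inside 1.5-fold, as 55.6% of all genes did. The comparisons share rats, so the 3 sets of estimates are not independent of each other.

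**Figure D3:**
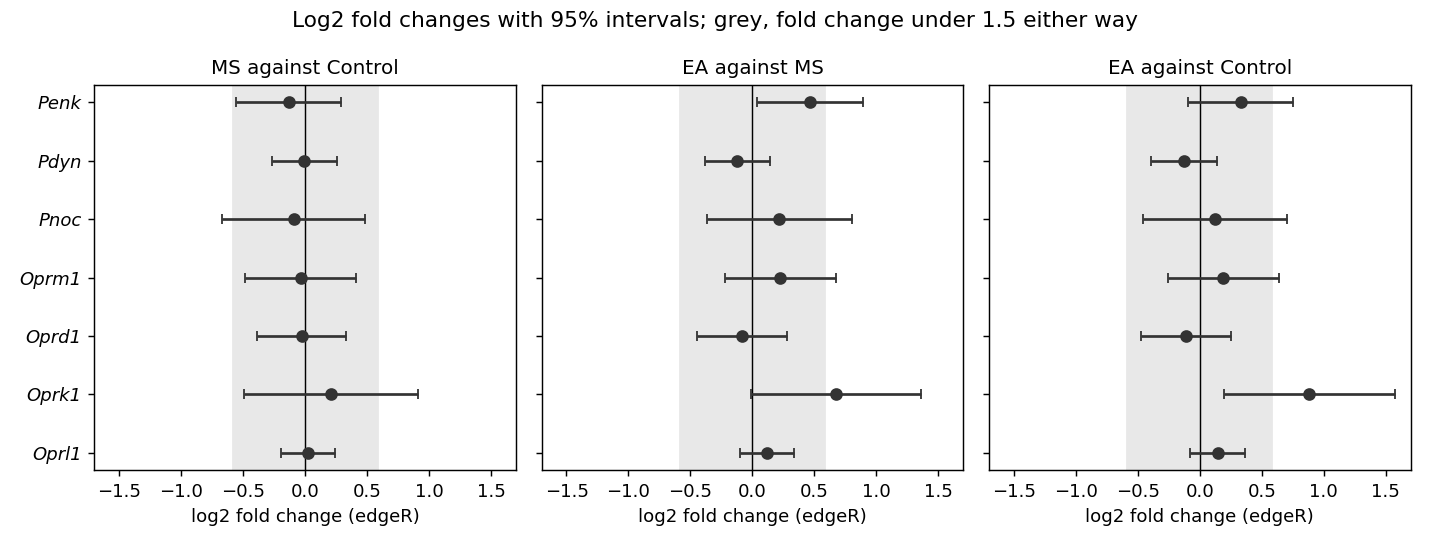
Log2 fold changes (horizontal axis, edgeR) of the 7 opioid genes in the 3 comparisons, with points for estimates, whiskers for 95% intervals and grey for changes under 1.5-fold. In MS against Control 5 of 7 whiskers lie inside the grey band, and in EA against Control the whisker of Oprk1 runs from 0.19 to 1.57.

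Beyond the members, 49 genes of opioid peptide handling and signalling are reported in 5 lists, of which 48 were tested. In MS against Control rats 0 of these 48 were called by edgeR, and an unadjusted p under 0.05 was found for 3 higher and 1 lower gene, beside 7.06% and 3.55% of all tested genes. In EA against MS rats 0 were called, and 0 higher and 9 lower genes had such a p, beside 6.01% and 6.42% of all genes. In EA against Control rats 0 of the 48 were called by edgeR, while DESeq2 called 1, Mme. Such a p was found for 3 higher and 11 lower genes, beside 11.9% and 10.6% of all genes. Over both directions such a p was found for 8.33% (MS against Control), 18.75% (EA against MS) and 29.2% (EA against Control) of the 48. Among all tested genes these shares were 10.6%, 12.4% and 22.5%. The median log2 fold change over the lists was -0.11 in EA against Control rats, beside 0.0055 over all genes. Of the 48, 37 were lower in that comparison, as were 8263 of all 16837 tested genes.

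Among the enzymes that break down opioid peptides, Mme, the enkephalin-degrading neprilysin, had 8.30, 8.23 and 7.96 CPM among Control rats, 9.91, 10.007 and 11.4 CPM among MS rats and 10.2, 16.8 and 10.1 CPM among EA rats. All Control rats lay below all other rats, and C10 was far the highest. Its log2 fold change in EA over Control rats was 0.60 (edgeR adjusted p = 0.0799, standard error 0.188). DESeq2 called it (adjusted p = 0.0440), and without C10 the value was 0.31. The aminopeptidase Rnpep stood at -0.35 (edgeR adjusted p = 0.0507, standard error 0.0937) in the same comparison. In MS relative to Control rats Anpep, aminopeptidase N, had a value of 0.60 (edgeR adjusted p = 0.460). Lnpep, a membrane aminopeptidase, had 43 and 45 reads in B3 and B6 but 10 in B4, and at most 16 in the Control and EA rats.

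Besides Pomc, the processing list held 7 genes that act on the precursors or their peptides, all of them tested, and 0 of these 7 had an unadjusted p under 0.05 in each of the 3 comparisons. Cpe, which trims the cleaved peptides, had log2 fold changes of -0.12 over MS rats (edgeR adjusted p = 0.480) and -0.095 over Control rats in the EA group. Pam, which amidates neuropeptides, had values of -0.17 and -0.14.

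Of the 13 tested genes of receptor regulation, 12 were lower in EA than in Control rats, as were 8263 of all 16837 tested genes. An unadjusted p under 0.05 was found for 6 of these 12, and 10.6% of all tested genes were lower with such a p. None of the 13 was called by edgeR. Arrb1, the beta-arrestin that uncouples activated receptors, had 16.8, 12.6 and 17.7 CPM among Control rats, 14.9, 12.4 and 12.9 CPM among MS rats and 11.7, 11.2 and 9.54 CPM among EA rats. It differed by -0.53 on the log2 scale in EA from Control rats (edgeR adjusted p = 0.0592, standard error 0.151), and among the refits without 1 rat it passed both thresholds only without A2, at -0.67. The receptor kinase Grk2, counted under its older symbol Adrbk1, stood at -0.30 in EA over Control rats (edgeR adjusted p = 0.0525) and at -0.26 over MS rats (edgeR adjusted p = 0.273). Rgs17, which speeds the turn-off of Gi proteins and binds to the mu receptor, had 78.9, 77.6 and 73.7 CPM among Control rats and 91.3, 99.3 and 104 CPM among MS rats. The log2 fold change was 0.35 in MS over Control rats (edgeR adjusted p = 0.146, standard error 0.0808), and the EA rats, at 80.9 to 97.7 CPM, overlapped the MS rats and lay above the Control rats.

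Among the other genes with opioid in their name, Ogfr, a receptor of opioid growth factor, had log2 fold changes of -0.26 in MS over Control rats (edgeR adjusted p = 0.495) and -0.25 in EA over Control rats (edgeR adjusted p = 0.273). Ogfrl1, a relative of Ogfr, stood at 0.20 in EA over Control rats (edgeR adjusted p = 0.257).

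Of the 15 tested G protein subunits, adenylyl cyclases and channels, 13 were lower in EA than in Control rats, as were 8263 of all 16837 tested genes. Of these 13, 4 had an unadjusted p under 0.05, where 10.6% of all tested genes were lower with such a p. In this comparison 0 of the 15 were called by edgeR. Gnai2, an inhibitory G protein subunit, had a log2 fold change of -0.26 (edgeR adjusted p = 0.0750), and Gnb1, a beta subunit, one of -0.16 (edgeR adjusted p = 0.156). Kcnj6, a potassium channel opened by opioid receptors, stood at -0.22 in EA over MS rats (edgeR adjusted p = 0.300). The markers of cortical excitatory neurons were also lower in the EA group, with sums of 1827 to 2036 CPM against 2210 to 2332 CPM in Control and 2072 to 2211 CPM in MS rats, and their part in these values was not tested.

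**Figure D4:**
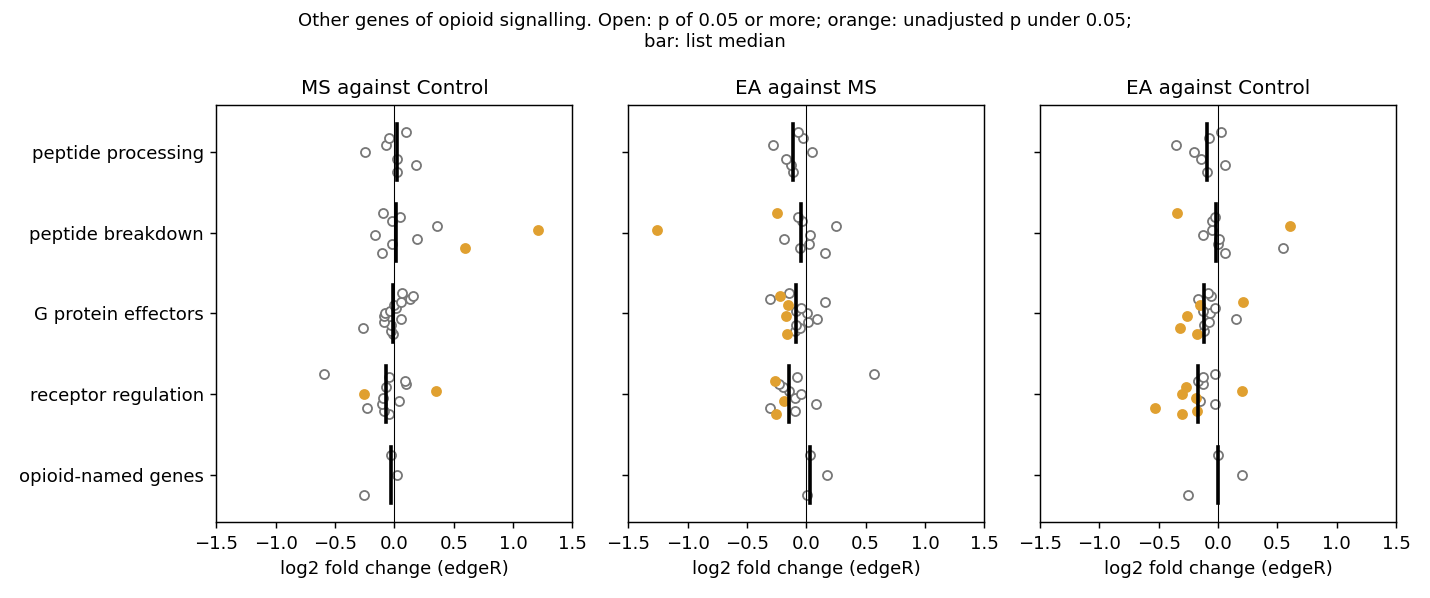
Each symbol is 1 of 48 tested genes of opioid peptide handling and signalling, placed by its log2 fold change (horizontal axis, edgeR) and list (vertical axis), with black bars for list medians. Orange symbols, with an unadjusted p under 0.05, lie mostly left of 0 in both EA comparisons.

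Genes whose pattern over the 9 rats was most like that of a member were taken as the 3 with the highest Pearson correlation of log2 CPM, as a description without a test, since some of 16837 genes will correlate with any pattern over 9 points. For Penk these were Dusp2 (r = 0.937), Fst (r = 0.907) and Apitd1 (r = 0.903). Dusp2, a phosphatase of MAP kinases, had only 11 to 17 reads per rat, and Fst, the activin-binding follistatin, had 4.37 and 4.45 CPM in C3 and C16 and 2.45 to 4.03 CPM in the others. For Pdyn they were LOC686980, Mmp17 and Rbfox2, each with r between 0.946 and 0.947, and Mmp17, a membrane-bound metalloproteinase, was lowest in C16 as Pdyn was, at 48.2 CPM. For Oprk1 they were the non-coding LOC102551224 (r = 0.959), Gpatch2l (r = 0.954) and Pdcd11 (r = 0.948), and LOC102551224 had 46 reads in C3 against 14 to 27 in the other rats.

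For the remaining members the 3 nearest genes were Smu1, Foxr2 and Lsm8 for Pnoc, with r from 0.920 to 0.940, and Zfp133, Blmh and Sos2 for Oprm1, with r from 0.908 to 0.915. For Oprd1 they were RGD1309821, Slc38a3 and Lrp1 (r from 0.944 to 0.958), and for Oprl1 Ceacam18, Pcdhga10 and LOC100909949 (r from 0.932 to 0.954). No member was among the 3 nearest genes of another member. Between Penk and Pdyn the correlation over the 9 rats was -0.351, and between Pdyn and Oprm1 it was -0.697, with C16 lowest for Pdyn and highest for Oprm1.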

How the data were processed

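The authors extracted total RNA, depleted rRNA, sequenced on a HiSeq X instrument, filtered reads with FastQC and aligned the reads by HISAT2 2.0.4 against Rnor_6.0 (version per the submitters' processing notes). The values deposited by the authors are whole-number counts per gene without normalization. The counting program, its strand setting and the treatment of reads with several locations are not given in the sources used here. Rats were grouped by their labels. Nothing states separate litters, so p-values measure the spread between these rats.

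Counts were analysed with edgeR 4.0.16 in R 4.3.3: filterByExpr (minimum count 10), TMM, and a quasi-likelihood fit with a mean per group over all 9 rats, tested with Benjamini-Hochberg adjustment over 16837 genes. Standard errors were derived from the log2 fold change and its F statistic. DESeq2 1.42.0 was an alternative. Exact permutation tests used scipy 1.17.1. Procedures were tested on simulated data. Pairs of rats in 1 group (9 pairs) differed by 6.22 to 14.0 times the counting variance, so no library was a duplicate.

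Members, marker lists (striatum, hypothalamus, olfactory bulb, layers 6, 6b and claustrum, interneurons, excitatory neurons, oligodendrocytes, astrocytes, microglia, choroid plexus, blood) and pathway lists were chosen with earlier results of these data known. Named pathway genes are those called or with the 2 smallest p per list and comparison. One gene of the pathway lists is not reported here, and the counts over these lists leave it out.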

Additional observations from a re-analysis of the deposited data

How the results depend on the processing

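No paired analysis was possible because the groups are different animals and share fewer than 2 replicate numbers. The alternatives were scaling by RLE or by totals, filters of at least 10 counts in every rat or at least 1 count in any rat, DESeq2, robust empirical Bayes, only the 6 rats compared, no fold threshold and each rat left out in turn, and C3 and C16 left out together was added after seeing the data. Under each of these, 0 members were called in each comparison. Levels per length were not compared, since no transcript lengths were at hand.

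In MS against Control rats the 4 genes called became 207 with at least 1 count, 70 with DESeq2, 7 with robust empirical Bayes, 11 with 6 rats and 13 without C3 and C16, and 2 to 22 with 1 rat left out (2 without A1 and without A2, 22 without B3, 9 without C3, 10 without C10). In EA against MS rats the 3 genes called became 0 with at least 10 counts (1951 genes at an unadjusted p under 0.05), 72 with at least 1 count, 37 with DESeq2, 5 with robust empirical Bayes and 1 with 6 rats, and 1 to 4 with 1 rat left out (1 without A1 and without C16). In EA against Control rats the 230 genes called became 469 with at least 1 count and 910 with no fold threshold, and 71 to 304 with 1 rat left out (71 without A1, 121 without C10). The causes were not tested. The 0 pathway genes called there became 1, Mme, with at least 1 count and with DESeq2, and 0 to 1 with 1 rat left out, the 1 being Arrb1 without A2. With C3 and C16 left out, the EA group was C10 alone, the highest rat for Mme. The log2 fold change of Mme over Control rats was then 1.04 instead of 0.60, which that choice of rats fixed.

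In the refits that left out 1 rat, 19 uncalled log2 fold changes, counted over genes, comparisons and refits, changed sign. Their ranges in MS against Control rats were -0.34 to 0.028 for Penk, -0.066 to 0.048 for Pdyn, -0.32 to 0.16 for Pnoc, -0.13 to 0.018 for Oprm1, -0.16 to 0.049 for Oprd1, -0.044 to 0.10 for Oprl1 and -0.082 to 0.022 for Opcml, a pathway gene. In EA against MS rats they were -0.035 to 0.45 for Pnoc, -0.16 to 0.016 for Oprd1 and -0.020 to 0.080 for Opcml. In EA against Control rats they were -0.019 to 0.22 for Pnoc and -0.0082 to 0.39 for Oprm1. Without C3 and C16, Pdyn turned to 0.032 relative to MS and 0.024 relative to Control rats, and Penk to -0.14 relative to Control rats. Oprk1 and Pnoc had low counts, at most 82 reads in a rat. They also had the widest spread within groups among the members, with pooled SDs of 0.384 and 0.361 on the log2 CPM scale. The part of depth in their uncertainty was not tested.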

Other observations

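Markers of the other cell types in the tissue were read for all 9 rats. The 5 astrocyte markers summed to 2811 to 3490 CPM, with the EA rats C10 and C16 at these limits. The 5 microglia markers summed to 206 to 235 CPM in Control, 191 to 216 CPM in MS and 173 to 221 CPM in EA rats. The 4 blood genes found of 6 listed summed to 93.7 to 198 CPM in Control, 221 to 304 CPM in MS and 207 to 303 CPM in EA rats. The 3 choroid plexus markers summed to 10.9 CPM in B4, the rat with the high hypothalamic markers, and to 1.07 to 3.37 CPM in the other rats. B4 held 258 reads of Oxt and 503 of Avp, the hypothalamic neuropeptides oxytocin and vasopressin, against at most 25 and 29 in the other rats, while its opioid precursors lay within the range of the other rats except for Pnoc, at 4.88 CPM the highest of the 9.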
